A study of Mus musculus with 4 samples.

Results

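Neurotrophins are secreted growth factors that keep neurons alive and adjust the strength of their synapses. Bdnf encodes brain-derived neurotrophic factor, which binds the receptor tyrosine kinase TrkB, the product of Ntrk2. Ntf3 encodes neurotrophin-3, which prefers TrkC, the product of Ntrk3, and Ngfr encodes p75, a receptor of the TNF receptor family that binds all mature neurotrophins and their precursors. In the hippocampus, BDNF acting on TrkB is best known for its part in lasting synaptic potentiation. The genes described here were chosen by symbol, as all probe sets whose platform annotation gives the single symbol Bdnf, Ntf3, Ntrk2, Ntrk3 or Ngfr. Of these 5 symbols 3 had such a probe set, 1 each for Bdnf, Ntrk2 and Ntrk3, among 8252 genes with a single symbol. Ntf3 and Ngfr had none and were not analysed here.

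Total RNA was taken from hippocampal CA1 of C57BL/6J mice that were young and male. The mice were handled and had no other treatment, and per the labels they were the controls of mice that were shocked. The 4 arrays differ in the hour of extraction, 1, 2, 4 or 6 hr after the last shock of the shocked mice, with 1 array at each hour. The labels do not say how many mice went into an array, and no hour has a replicate, so the hour and any other way in which the samples or arrays differed cannot be told apart. No array of a shocked animal was analysed here.

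The values are linear intensities on a common scale, with medians from 173 to 204 over the 4 arrays and 23.4% to 28.3% of values under 54.7, the floor used for log2 values. The 3' to 5' signal ratio, which rises as RNA or labelling is less complete, was 2.99 to 3.44 for the Actb control and 4.84 to 7.56 for the Gapdh control. All 6 CA1 pyramidal markers on the array were above the floor on all arrays, and their summed intensity was 7812 to 10028. The dentate granule markers Penk, Lct, Dsp and Il16 and the CA3 markers Nnat, Bok and Socs2 were also above it on all arrays. Another dentate marker, Prox1, was under the floor at 2 and 4 hr and read 63.4 and 106.6 at 1 and 6 hr. The CA3 marker Iyd was under the floor on 3 arrays. The 5 dentate markers on the array summed to 2472 to 2953. These markers therefore do not show how cleanly CA1 was taken. Both cholinergic neuron markers on the array, Slc18a3 and Lhx8, were under the floor on all arrays. The intensity of a probe set also depends on how well its probes bind, so the order of the ligand and the receptors by intensity says nothing of their order by transcript number. What can be read is how each probe set varied between arrays. In tissue RNA, fewer cells of a type and less RNA per cell cannot be told apart.

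Bdnf, the ligand, was bright and varied little. Its intensities, in order of extraction hour, were 2555.9, 2725.7, 2340.3 and 2480.2, a mean of 2526 ± 161 (SD, n = 4 arrays). The highest array, at 2 hr, was 1.16-fold above the lowest, at 4 hr, and the values followed no order of time. The SD of its log2 values was 0.092, against a median of 0.29 over the 7453 probe sets tested, and 5.23% of those had a smaller SD. Bright probe sets vary less in general. When the tested probe sets were divided by mean level into 4 bins of equal size, the brightest bin held Bdnf; there the median SD was 0.19 and 11.6% of probe sets had a smaller one. The flatness depended in part on how the arrays were scaled. With every array shifted to a common median, which moved the 2 hr array up by 0.17 and the others down by 0.029 to 0.071 log2 units, the SD of Bdnf was 0.20 (22.2% of probe sets smaller). With quantile normalization it was 0.055 (1.54% smaller), and the highest array was then that of 1 hr.

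**Figure D1:**
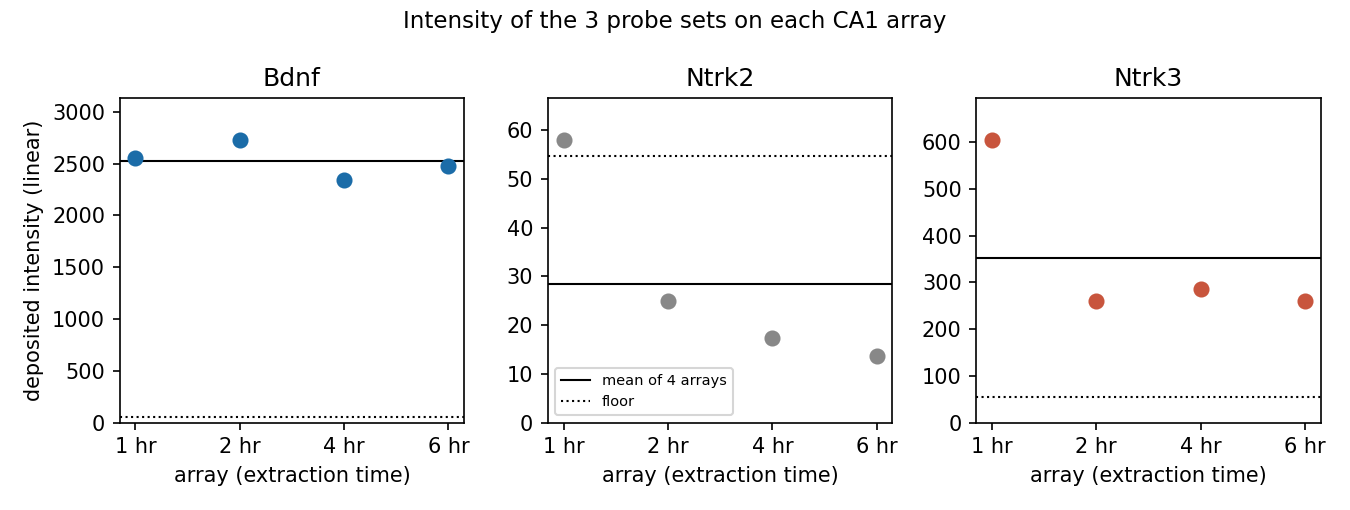
Deposited intensity (linear, each panel from 0 on its own scale) of the Bdnf, Ntrk2 and Ntrk3 probe sets on the arrays extracted at 1, 2, 4 and 6 hr, 1 point per array, with the mean of the 4 arrays (solid line) and the floor of 54.7 (dotted line). Bdnf stays between 2340.3 and 2725.7, Ntrk2 lies under the floor on 3 arrays, and Ntrk3 is at 604.4 at 1 hr and between 259.5 and 285.6 on the other arrays.

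The Bdnf probe set gives a single value for a gene that RefSeq (GRCm38.p6) provides with 7 promoter windows, each 250 bases before to 50 after a transcript start, and the deposited value cannot be divided among them. All lie on the plus strand of chromosome 2. The 60 bases just before the start are shown for windows 1, 3 and 7, as examples of how unlike these starts are, with the cAMP response element half-site TGACG in capitals (searched on both strands, so also as CGTCA).
Bdnf window 1, chr2:109674640-109674699: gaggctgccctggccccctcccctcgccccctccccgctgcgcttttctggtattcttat
Bdnf window 3, chr2:109692376-109692435: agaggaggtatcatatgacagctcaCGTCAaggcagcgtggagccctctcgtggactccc
Bdnf window 7, chr2:109722861-109722920: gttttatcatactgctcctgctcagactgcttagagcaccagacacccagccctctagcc
The half-site, a short motif known to be bound by CREB family factors, began 35 bases before the start in window 3 and was found in 1 of the 7 windows. It is common, being present in 20.8% of all 32851 RefSeq promoter windows of this length. The full element TGACGTCA, which contains the half-site, was in none of the Bdnf windows and in 1.79% of all windows. The 1 Ntrk2 window in the table held neither motif. A match is a description of the letters only, and these arrays do not measure which start was used.

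Ntrk2, which encodes TrkB, was dim. In order of extraction hour its probe set read 57.9, 24.9, 17.4 and 13.6. The last 3 values lie under the floor of 54.7 and have no order among themselves, and the first is 1.06-fold above it. The probe set was therefore outside the 7453 tested. Without the filter on mean level its slope on the floored scale, in log2 units per hr, was -0.013 with an SE of 0.011 (limma, adjusted p = 0.946 over 12422 probe sets). With 3 of the 4 values set to the floor, this slope is no measure of change in Ntrk2. With the floor at 19.3, the 10th percentile of all values, the SD of its log2 values over the 4 arrays was 0.75 in place of 0.041, so the floor sets the spread of this probe set. A signal this low gives no measure of how much TrkB transcript was present.

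Ntrk3, which encodes TrkC, differed on a single array. It gave 604.4 on the 1 hr array and then 259.5, 285.6 and 261.1 on the 2, 4 and 6 hr arrays. The 1 hr array was 2.12-fold above the next highest, at 4 hr, and the 3 later arrays averaged 269 ± 14.6 (SD, n = 3). Over all 4 arrays the SD of the log2 values was 0.59, with 85.5% of the tested probe sets below it and 88.2% of those in its bin of mean level, the 2nd from the dimmest, where the median was 0.33. Over the 2, 4 and 6 hr arrays alone it was 0.077, so the spread of Ntrk3 came from the 1 hr array. Of the 2 probe sets that passed the filter, Ntrk3 stood at least 1 log2 unit (2-fold) above each other array at 1 hr, and Bdnf did so on no array. Among all tested probe sets 0.47% stood above at 1 hr in this way, and 7.53% stood above or below on some array. With arrays at a common median the distance of Ntrk3 was 0.98 log2 units, just short of that limit, and with quantile normalization it was 1.11. With 1 array at 1 hr this difference has no replicate.

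Other measures of the 1 hr array were as follows. Its Actb 3' to 5' ratio was the highest, at 3.44, while its Gapdh ratio, 4.84, was close to that of the 6 hr array, 4.89. The 4 CA3 pyramidal markers on the array, genes of the neighbouring hippocampal field, summed to 3767 at 1 hr and 2355 to 2640 on the other arrays. Of the 3 CA3 markers tested 1 was highest at 1 hr, Nnat, at 2014.9 against 743.9 to 981.6, while Bok and Socs2 were highest on other arrays. Iyd was under the floor on 3 arrays. The summed CA1 markers at 1 hr, 7841, were within the range of the others. The part of these measures in the Ntrk3 value was not tested.

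No straight line over the hours passed the test for either gene. The slope of Bdnf was -0.022 ± 0.062 log2 units per hr (SE), with a 95% interval from -0.18 to 0.14 (limma adjusted p = 1.00 over 7453 probe sets). That of Ntrk3 was -0.18 ± 0.11, with a 95% interval from -0.45 to 0.092 and the same adjusted p. Without the 1 hr array the slope of Ntrk3 was 0.0022 ± 0.094, so its downward direction rested on that array. Over all tested probe sets 0 passed after Benjamini-Hochberg adjustment (0% of 7453) and 382 had an unadjusted p under 0.05 (5.13%). Neither gene was among those 382, with unadjusted limma p of 0.73 for Bdnf and 0.15 for Ntrk3.

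Pairs of ligand and receptor, and of the receptors, were compared within each array, where the response of the probes cancels in the movement from array to array. Of 6 pairs planned, 2 had values, since the others held Ntf3 or Ngfr. The log2 difference of Bdnf and Ntrk2 moved over a range of 0.22, with Ntrk2 held at the floor on 3 arrays, so this range is in effect that of Bdnf. Likewise the difference of the receptors Ntrk2 and Ntrk3, with a range of 1.14, is in effect the movement of Ntrk3 against the floor. It was 0.51 with the floor at the 10th percentile and 0.14 without the 1 hr array. A further pair, chosen after the values were seen, was Bdnf and Ntrk3. Its log2 difference was 2.08 on the 1 hr array and 3.03 to 3.39 on the other 3. These values restate the high Ntrk3 value on the 1 hr array beside a steady Bdnf, and they are not ratios of transcript numbers.

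The genes whose values ran most like each gene were found by the root mean square distance between log2 values centred on their mean over the 4 arrays. Nearest to Bdnf were Vamp4, a vesicle fusion protein, at 0.015 log2 units, Plcb1, a phospholipase C, also at 0.015, and Ywhaq, a 14-3-3 adaptor protein, at 0.017. A flat pattern is shared by many, and 33.9% of the other 7452 tested probe sets lay within 0.2 log2 units of Bdnf. The other probe sets of Vamp4, Plcb1 and Ywhaq had larger SDs than those named, from 0.14 to 0.56. The pattern of Ntrk3 was less common, with 44 probe sets within 0.2 log2 units (0.59%). Nearest were Htr1b, a serotonin receptor, at 0.046, Atn1, a transcriptional corepressor, at 0.066, and Cdkn1a, a cell-cycle inhibitor, also at 0.066.

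**Figure D2:**
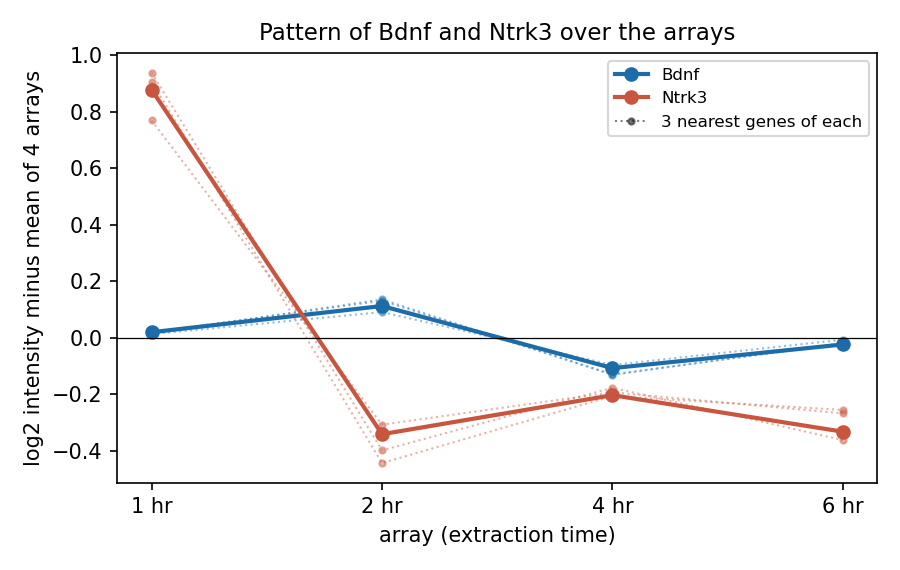
Log2 intensity (floored at 54.7) minus the mean of the 4 arrays, by array, for Bdnf and Ntrk3 (solid lines) and the 3 genes nearest to each (dotted lines); hours are evenly spaced and each point is 1 array. Ntrk3 and its neighbours are high at 1 hr only, and Bdnf and its neighbours stay near 0.

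Htr1b read 305.9 at 1 hr and 121 to 141.1 later, Atn1 read 375.3 and then 147.2 to 173.5, and this Cdkn1a probe set read 278.3 and then 131.9 to 142.8. The other Cdkn1a probe set had its maximum on the same array, 260.4, but kept 214.6 on the next and was lowest on the 6 hr array, 76.5.

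The other genes of neurotrophin signalling were described from 7 lists of 185 symbols in all, older names included, of which 127 were on the array with a single symbol and 92 were tested. Of the 92, 0 passed limma's test of the slope and 3 had an unadjusted p under 0.05. Over all tested probe sets these shares were 0% and 5.13%. A total of 47 had a slope above 0 and 45 below, beside 50.9% above 0 and 49.1% below over all tested probe sets. Their median SD was 0.27 log2 units, against 0.29 over all. Of the 92, 6 varied less than Bdnf and 13 more than Ntrk3. Over all tested probe sets 5.23% had a smaller SD than Bdnf and 85.5% a smaller one than Ntrk3. On the 1 hr array 27 of the 92 were highest, beside 25.9% of all tested probe sets. Of the 7 lists 6 had tested members, and these are described in turn.

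Genes that process or release neurotrophins, which are made as precursors and cut by proteases, had 13 tested members with a median SD of 0.23. By limma 0 passed and 0 had an unadjusted p under 0.05, and 6 slopes were above 0. Over all tested probe sets the shares were 0%, 5.13% and 50.9%. Cpe, a carboxypeptidase and sorting receptor of the regulated secretory pathway, was among the steadiest, at 22882 ± 998 (SD, n = 4), an SD of 0.063 log2 units. A second Cpe probe set had an SD of 0.18. Serpini1, the neuronal inhibitor of tissue plasminogen activator, read 7524 ± 688. The proprotein convertase Pcsk6 varied most, at 440.4, 228.4, 74.8 and 319 at 1, 2, 4 and 6 hr. Plg, the precursor of plasmin, read 214.2, 82.1 and 249.3 at 1, 2 and 6 hr and lay under the floor at 4 hr, while its second probe set was highest at 1 hr (195.3).

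Adaptors and kinases that carry the Trk signal to the MAP kinases had 12 tested members, 0 past limma's threshold and 0 at an unadjusted p under 0.05, with 2 slopes above 0 and 10 below. Over all tested probe sets 49.1% of slopes were below 0 and 5.13% had an unadjusted limma p under 0.05. The median slope of the 12 was -0.040 log2 units per hr, beside 0.0015 over all tested probe sets. Their median SD was 0.27, all 12 varied more than Bdnf and less than Ntrk3, and none stood at least 1 log2 unit apart on any array. Over all tested probe sets 5.23% varied less than Bdnf, 85.5% varied less than Ntrk3 and 7.53% stood apart on some array. Grb2, the adaptor between the receptor and Ras activation, varied most, at 1534.4 at 1 hr and 710.3 to 1116.2 later. It was 1 of 5 among the 12 that were highest at 1 hr, beside 25.9% of all tested probe sets. Gab1, a docking protein, was highest at 2 hr through the probe set used, 441.2, and at 1 hr through the other, 184. Rap1b, a small GTPase, and Map2k5, a kinase upstream of ERK5, varied least, at 135 ± 17.9 and 592 ± 87.0 (SD, n = 4). Ptpn11, Shc3 and Gab2 were under the floor on all arrays.

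The phosphoinositide 3-kinase and Akt arm, linked to survival, had 12 tested members with 9 slopes above 0, beside 50.9% of all tested probe sets. Its median slope was 0.044 log2 units per hr, beside 0.0015 over all. By limma 0 passed the threshold and 1 had an unadjusted p under 0.05, beside 5.13% of all tested probe sets. Akt1, a kinase at the centre of this arm, varied slightly less than Bdnf, at 720 ± 44.1 (SD, n = 4). Pik3ca, a catalytic subunit, read 567 ± 51.2 through one probe set, with an SD of 0.13 log2 units, and had an SD of 0.39 through the other. Pik3r2, a regulatory subunit, read 1103.9 at 4 hr and 359.2 to 601.5 otherwise. Eif4ebp1, a repressor of translation, was under the floor on the 1 hr array and reached 226.9 on the 4 hr array, with a slope of 0.30 ± 0.13 (SE, limma, adjusted p = 0.972).

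The phospholipase C gamma arm, which acts through calcium and protein kinase C, had 9 tested members, 3 slopes above 0 and a median SD of 0.36. By limma 0 passed and 1 had an unadjusted p under 0.05. Over all tested probe sets 5.13% were under 0.05 and 50.9% of slopes were above 0. Prkcb, a protein kinase C isoform, read 17687 ± 713 and Itpr2, a calcium release channel, 1069 ± 51.1 (SD, n = 4), both with a smaller log2 SD than Bdnf. The other tested Itpr2 probe set had an SD of 0.50 and the second Prkcb probe set 0.15. Plcg1, the phospholipase recruited by active Trk receptors, gave 457.2, 222, 186.2 and 273.8 in order of hour. It was 1 of 3 among the 9 that were highest at 1 hr, beside 25.9% of all tested probe sets. Camk2a, the abundant kinase of the postsynaptic density, was dim through both its probe sets, at 53.2 to 161.4 through the brighter.

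Partners of p75 and genes of its death arm had 23 tested members, 14 slopes above 0 and a median SD of 0.25. Slopes above 0 made up 50.9% over all tested probe sets. Psenen, a subunit of the gamma-secretase that cuts p75, read 515 ± 29.4, while Psen2, a catalytic subunit of the same complex, read 645.8 at 4 hr and 245.8 to 375.7 otherwise. Nfkbia, the inhibitor of NF-kB, read 864 ± 72.8 (SD, n = 4), an SD of 0.12 log2 units, and its other probe set had an SD of 0.33, with 650.2 at 6 hr and 399 to 459.2 otherwise. Map3k5, a kinase upstream of JNK, read 68.6 at 1 hr and 139.9 to 201.3 later. By limma 0 of the 23 passed the threshold, and 0 had an unadjusted p under 0.05, beside 5.13% of all tested probe sets. On the 4 hr array, where Psen2 and Pik3r2 were highest, the 3 choroid plexus markers on the array summed to 3689, against 473 to 658 on the others, through Ttr alone, at 3216.8 against 140.3 to 196.2. Folr1 was highest at 1 hr, at 277.8, and Kl at 2 hr, at 370. The part of this in the values of Psen2 and Pik3r2 was not tested.

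**Figure D3:**
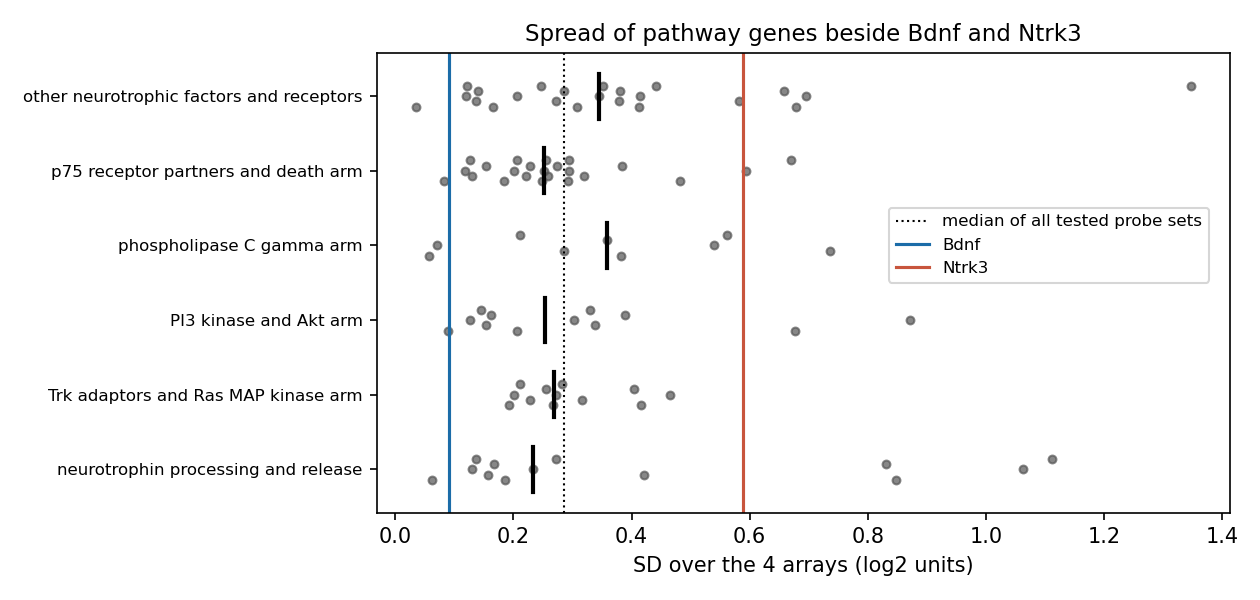
SD of log2 intensity over the 4 arrays (horizontal axis, log2 units) for the 92 tested genes of the 6 lists with tested members (grey points, vertical bars at each list's median), with Bdnf (blue line, 0.092), Ntrk3 (red line, 0.59) and the median of all 7453 tested probe sets (dotted line, 0.29). Of the 92 genes 6 lie below Bdnf and 13 above Ntrk3. Over all tested probe sets 5.23% lie below Bdnf and 85.5% below Ntrk3.

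Other neurotrophic factors and their receptors give a second view of ligands against receptors. Their roles were assigned from general knowledge after the values were seen. The 12 tested ligands had a median SD of 0.30 log2 units (0.14 to 1.35) and the 11 tested receptors 0.35 (0.035 to 0.66). The median over all tested probe sets was 0.29, and ligands and receptors were not matched for mean level. All 12 ligands varied more than Bdnf, and among the receptors Erbb3 alone varied less, at 371 ± 9.13 (SD, n = 4), with its other probe set under the floor. Over all tested probe sets only 5.23% varied less than Bdnf, so these counts do not set ligands apart from receptors. Artn, a ligand of the GDNF family, varied most, with 458.8 on the 1 hr array, 227.2 and 98.1 on the 4 and 6 hr arrays and a value under the floor on the 2 hr array. Its 1 hr value was at least 1 log2 unit above each other array, as for 0.47% of all tested probe sets. It was the only 1 of the 23 tested genes of this list to stand above at 1 hr. The same high value also raised the mean that the filter used. Gdnf read 227.7 and 219.9 at 2 and 4 hr and 107.9 and 89.4 at 1 and 6 hr, while its other probe set was under the floor on all arrays but that of 4 hr, at 81.5. Igf1r, the IGF-1 receptor, read 1074 at 4 hr and 1257.4 to 1279.5 otherwise. Ret, the signalling receptor of the GDNF family, Cntfr and Met were under the floor on all arrays, as was the ligand Fgf2. By limma 0 of the 23 passed, and 1 had an unadjusted p under 0.05, beside 5.13% of all tested probe sets.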

How the data were processed

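For each of 12488 probe sets the authors deposited an intensity on each of 4 arrays. The values are linear with a 2% trimmed mean of 500.3 on each array, so they had been scaled before deposit, a reading from the values; software and detection calls are not given in the sources used here. Scaling hides a change shared by most genes. Precision is limited by the number of arrays. Gene names came from the platform annotation (10855 with 1 symbol, 396 with several, 1237 with none).

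Values under 54.7, the 25th percentile over probe sets other than the 66 controls, were set to that floor. The 7453 probe sets with mean log2 above the 40th percentile were tested for a line over hours with limma 3.58.1 in R 4.3.3 (2 residual degrees of freedom, two-sided, Benjamini-Hochberg at 0.05), a procedure checked on simulated data. Separate animals per array are not stated, so a p-value reflects the spread between these samples alone, which may be technical. List genes entered through their probe set of highest mean; in each list the 2 with the smallest and the 2 with the largest SD were named, with the 3 nearest patterns of each gene. Alternatives were other scalings, floors, filters, time scales and priors, each array left out, another distance for standing apart and all probe sets of a gene. Promoter letters are from RefSeq. The genes, lists and rules were chosen with earlier results of these data known.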

Additional observations from a re-analysis of the deposited data

Results flagged for a closer look

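On 1 array the value of 5 of the 33 named probe sets lay far from the other 3, by the gap to the nearest value as a share of the whole range (Dixon's 95% criterion). Chance flags about 1 in 20 groups, and over all tested probe sets 5.15% were past this value. The share was 0.924 for Ntrk3, high at 1 hr. It was 0.891 for Htr1b, 0.885 for Atn1 and 0.926 for Cdkn1a, also high at 1 hr; these genes were named for their likeness to Ntrk3, so they are no further evidence. It was 0.892 for Igf1r, low at 4 hr.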

How the results depend on the processing

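The count of probe sets past the threshold for a slope stayed at 0 under all 13 alternatives, and the count of list members past it at 0 under all 11 of its own. The number at an unadjusted limma p under 0.05, 382 of 7453 as reported, depended on the filter and on other settings. It ran from 229 of 4969 with the filter at the 60th percentile to 782 of 12422 with no filter. Where 7453 were tested, it ran from 319 without the 1 hr array to 442 without the 2 hr array. The number of the genes' probe sets standing apart on 1 array, 1 as reported, was 0 with a common median and 0 to 1 with arrays left out, 0 without the 1 hr array. The range of the log2 difference of Bdnf and Ntrk2, 0.22 as reported, was 0.12 with quantile normalization, 0.46 with a common median and 1.54 with the floor at the 10th percentile (0.13 to 0.22 with arrays left out). That of Ntrk2 and Ntrk3 was 0.51 with the floor at the 10th percentile and 0.14 to 1.21 with arrays left out. The slope of Ntrk3 changed sign without the 1 hr array, to 0.0022 log2 units per hr, and ran from -0.30 to 0.0022 with arrays left out. The slope of Bdnf was below 0 in all 13 alternatives, but in each it was smaller in size than its SE. The alternatives use the same 4 arrays, so a shared sign shows no decline. No paired analysis was possible because the arrays form 1 group with 1 array at each hour. Signal over background limits Ntrk2, which is under the floor on 3 of 4 arrays.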
